A study of Mus musculus with 28 samples.

Results

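The genes described here encode the machinery of autophagy and of its mitochondrial form, mitophagy, in the tibialis anterior (TA) muscle of the mouse hindlimb, in which fast-twitch fibers predominate. They were chosen by symbol: the *Atg* genes, *Ulk1* and *Ulk2*, the LC3 and GABARAP family, the lipid kinase complex around *Becn1*, cargo receptors, mitophagy factors and the transcription factors *Tfeb* and *Tfe3*. The rule found 44 genes among the 12732 of the table. RNA sequencing of 14 *mfn1,2* and 14 wt mice was analysed, with 1 library per mouse. The *mfn1,2* mice carried *Myl1*-Cre, which acts in fast-twitch fibers, with a deleted and a floxed allele of both *Mfn1* and *Mfn2* (Mfn1 -/flox, Mfn2 -/flox). The wt mice were littermates with a wild-type and a floxed allele of each gene (Mfn1 +/flox, Mfn2 +/flox), so that cells without Cre also differed between the genotypes in 1 allele of each gene. By the study's methods, males and females were used and a floxed mDendra allele was part of the cross. The genotype given for wt mice lists no Cre. Effects of Cre itself, or of Cre on mDendra, therefore cannot be told apart from loss of the mitofusins. In each genotype the labels list 4 mice aged 4 weeks, 4 aged 6 weeks, 4 aged 8 weeks and 2 aged 10 weeks, but the columns of values carry no age, so each genotype is treated as 14 replicates of mixed age.

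In autophagy, the ULK kinase complex starts the process and a lipid kinase complex marks the forming membrane with PI3P. A pair of ubiquitin-like conjugation systems then attaches LC3 and GABARAP proteins to that membrane, where cargo receptors such as p62 (*Sqstm1*) bind them and bring in their cargo. The closed autophagosome fuses with a lysosome. In mitophagy the cargo is a mitochondrion, marked by the kinase PINK1 and the ubiquitin ligase Parkin (*Park2*, not analysed here) or carrying its own receptor, such as FUNDC1. TFEB and TFE3 are transcription factors that activate lysosomal and autophagy genes, and skeletal muscle uses autophagy in fasting and for the removal of damaged mitochondria.

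The deposited values are a normalized signal that falls with gene length, as a per-length measure does, so levels are compared between genes only with that in mind, and read depth is unknown. They summed to 326643 to 419290 per library in *mfn1,2* and 426029 to 564123 in wt muscle. RNA encoded by mtDNA took 24.9% to 35.5% of these sums in *mfn1,2* and 49.4% to 71.3% in wt muscle. Each library was therefore scaled by its median ratio to the geometric mean of all libraries, and all levels below are these scaled values. A gene is said to rise or fall in *mfn1,2* muscle where the adjusted *P* (limma), over all 10819 genes tested, is under 0.01, and log2 fold changes, given with their standard error (SE), are on the log2(value + 0.1) scale. *Mfn1* ranged from 8.15 to 18.6 (median 13.6) in *mfn1,2* and from 35.8 to 78.8 (median 50.4) in wt libraries, and *Mfn2* from 24.1 to 42.9 (median 29.6) in *mfn1,2* and from 39.7 to 57.1 (median 48.1) in wt libraries. *Mfn1*, with a log2 fold change of −2.04, was lower under every scaling tried, whereas *Mfn2*, with a log2 fold change of −0.66, was at 0.40 with libraries brought to the same total and at 0.18 with *Actb* as the scale. A clustering within each genotype was cut into a larger and a smaller group. The smaller groups held 4 wt libraries (WT6, WT8, WT9 and WT13) and 1 *mfn1,2* library (DM8), said below to stand apart. Such a cut splits any set of libraries, so these are not shown to be outliers.

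In *mfn1,2* muscle, 14 of the 44 genes rose and 8 fell. The 14 rises are 31.8% of the genes described, against 28.2% of all genes tested, and the 8 falls are 18.2%, against 24.9%. In either direction 22 of 44 passed, against 53.2% of all genes, so the machinery as a whole changed about as often as the rest of the transcriptome. Their median log2 fold change was 0.05 (all genes, 0.03), and the median of the absolute log2 fold changes was 0.26 (all genes, 0.39). Without the 5 libraries that stood apart, 13 rose and 10 fell, beside 2837 and 2566 of all 10707 genes tested there. *Atg14* was no longer called, and *Rb1cc1* and *Fundc2* were called as lower. Changes of more than 1 on the log2 scale were seen in 2 genes, *Optn* and *Sqstm1*, or 4.55% of the 44, against 13.7% of all genes. The lowest *mfn1,2* library was above the highest wt library for *Optn*, *Sqstm1*, *Phb2* and *Wipi1*, which is 9.09% of the 44 genes against 6.15% of all genes, and the highest *mfn1,2* library was below the lowest wt library for *Ulk2* and *Tfeb*, 4.55% against 5.08%.

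**Figure D1:**
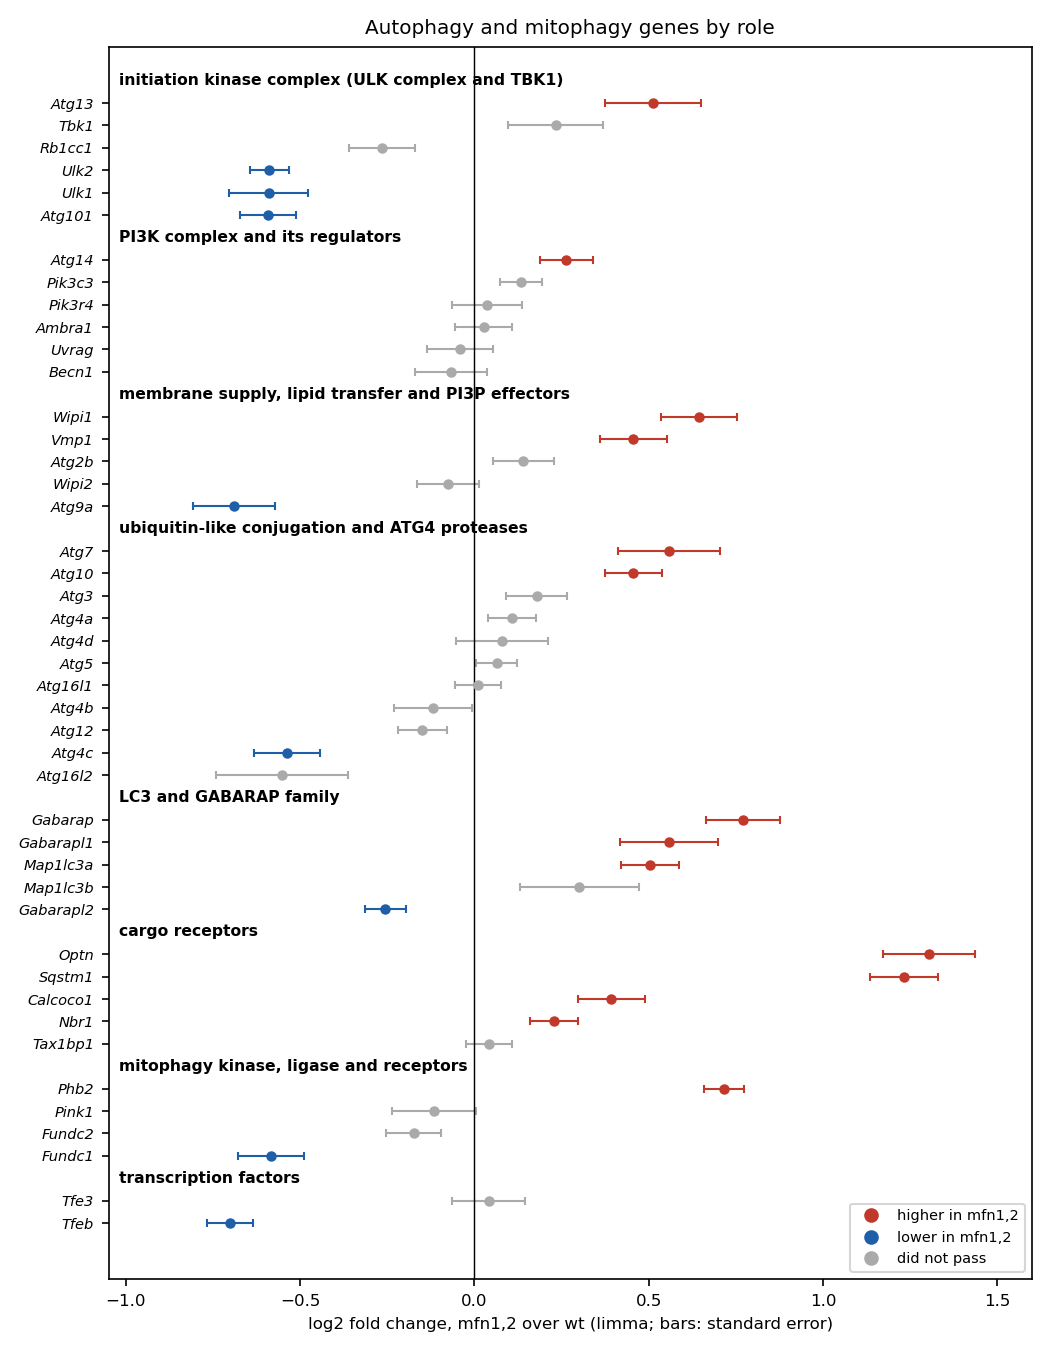
Log2 fold change of *mfn1,2* over wt for each of the 44 genes, grouped by role, with the standard error (SE) from limma (14 libraries per genotype). The cargo receptors *Optn* (1.30) and *Sqstm1* (1.23) lie farthest to the right and *Tfeb* (−0.70) and *Atg9a* (−0.69) farthest to the left. Fold changes left of 0 depend on the scaling: with *Actb* or the library total as the scale, all 8 genes drawn as lower are above 0.

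The direction of the falls depended on how libraries were scaled. All 14 genes that rose were above 0 under each of 5 other scalings, but these could hardly have turned a rise. Only the upper quartile lowered the median log2 fold change of all genes, from 0.03 to −0.05, and the smallest rise was 0.23 (*Nbr1*). The signs therefore do not show the rises to be firmer than the falls. Of the 8 that fell, 2 (*Tfeb* and *Atg9a*) were below 0 in the values as deposited and 0 with *Actb* or the library total as the scale, while all 8 stayed below 0 when scaled to the upper quartile or to the same total without the mitochondrially encoded genes. The scalings move all genes together: the median log2 fold change of all genes was 0.64 in the deposited values, 1.04 at the same total, 0.83 with *Actb*, 0.16 at the total without mitochondrially encoded genes and −0.05 at the upper quartile. Relative to that median, the 14 rises lay above it and the 8 falls below it under each of these 5 scalings. A fall here therefore means lower relative to the other genes.

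**Figure D2:**
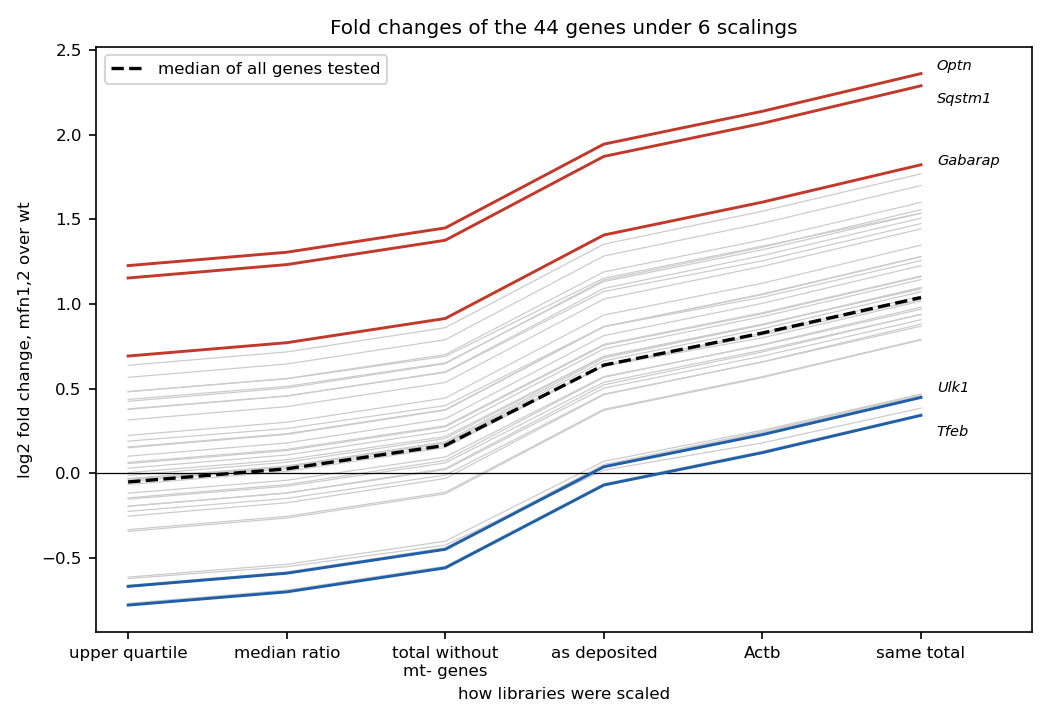
Log2 fold change (*mfn1,2* over wt) of the 44 genes under 6 ways of scaling the libraries, 1 line per gene, with the median of all genes tested as a dashed line. *Optn*, *Sqstm1* and *Gabarap* (red) stay above the dashed line and *Ulk1* and *Tfeb* (blue) below it; relative to 0, *Ulk1* turns from −0.59 at the median ratio to 0.04 in the deposited values.

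The largest changes were in the cargo receptors, which bind their cargo and the LC3 or GABARAP proteins on the membrane. Of 5 receptors, 4 rose and 0 fell, beside 28.2% and 24.9% of all genes tested. *Sqstm1*, which encodes p62, ranged from 120 to 254 (median 184) in *mfn1,2* and from 62.3 to 110 (median 71.8) in wt libraries, and no libraries overlapped. The log2 fold change was 1.23 (SE 0.10, limma adjusted *P* = 3.58e-12). It had the highest level per length of the 44 genes in both genotypes by median.

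*Optn*, which encodes optineurin, a receptor that TBK1 phosphorylates in mitophagy, ranged from 73.9 to 117 (median 94.2) in *mfn1,2* and from 23.6 to 73.4 (median 39.1) in wt libraries, again without overlap. Relative to wt, its log2 fold change was 1.30 (SE 0.13, limma adjusted *P* = 8.25e-10). The wt libraries were the more spread, with a coefficient of variation of 13.1% in *mfn1,2* and 34.0% in wt muscle. The 4 wt libraries that stood apart held the lowest values, 23.6 to 27.1, against 34.8 to 73.4 in the other 10, and without the libraries that stood apart the log2 fold change was 1.09. *Actb* was 97.6 to 206 in these 4 libraries and 53.0 to 80.4 in the other 10 wt libraries.

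*Calcoco1*, a receptor related to NDP52, ranged from 11.1 to 24.7 (median 19.3) in *mfn1,2* and from 10.8 to 18.3 (median 14.9) in wt libraries, so the ranges overlapped, although 8 of 14 *mfn1,2* libraries exceeded every wt library. This gave a log2 fold change of 0.39 (limma adjusted *P* = 0.000778). *Nbr1*, a receptor that works with p62, rose by 0.23 (limma adjusted *P* = 0.00511). This call was lost in 3 of the 28 fits that left out 1 library (without WT1, DM7 or DM14), where the adjusted *P* reached 0.0104. *Tax1bp1* was at a median of 50.03 in *mfn1,2* and 47.6 in wt muscle, with a log2 fold change of 0.04 (limma adjusted *P* = 0.586).

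**Figure D3:**
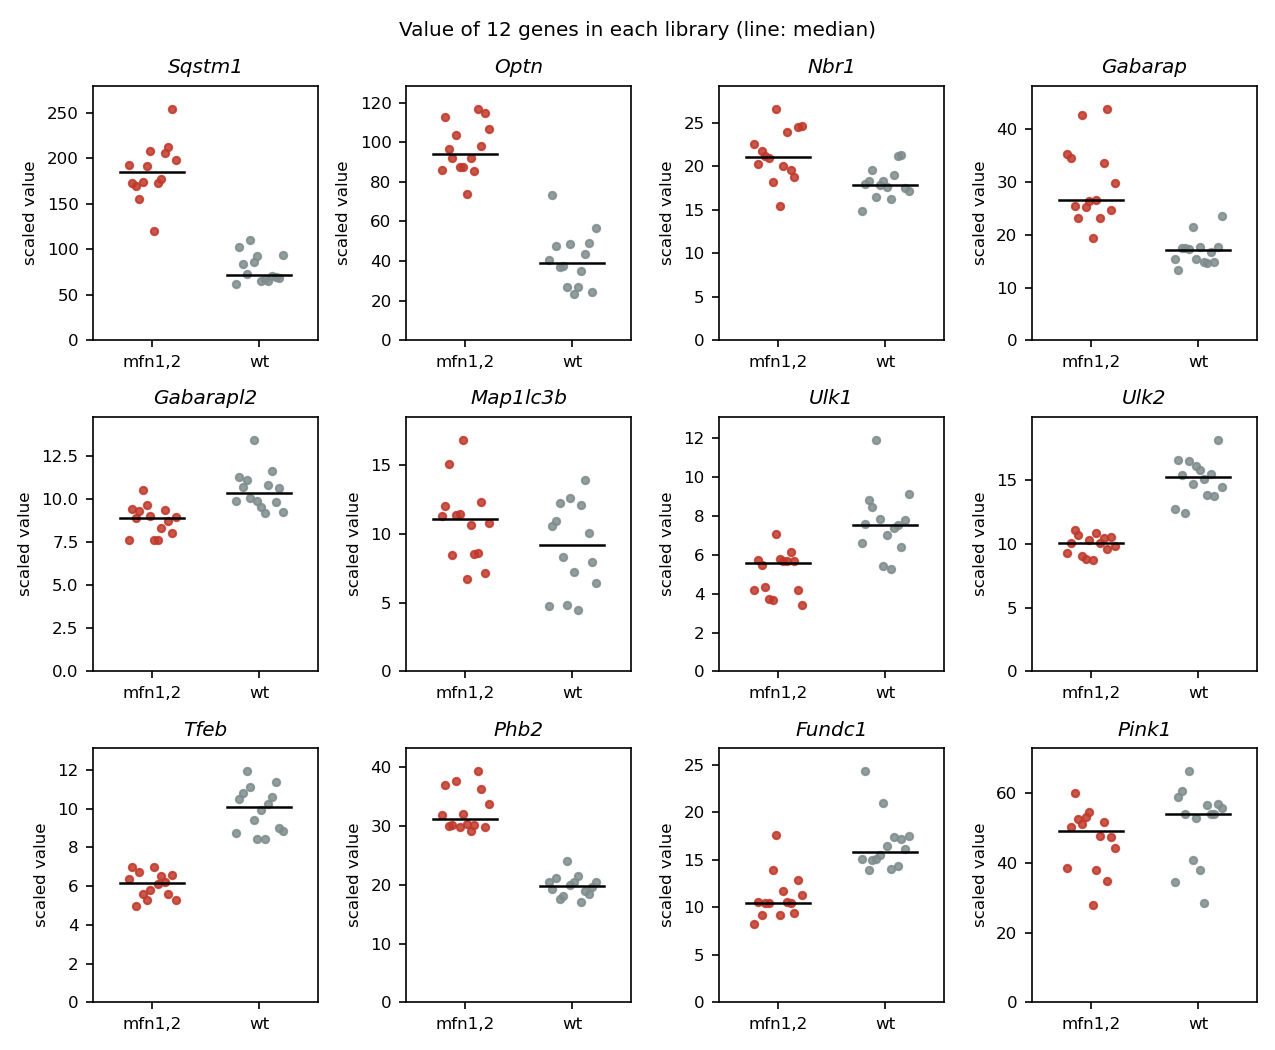
Scaled value of 12 genes in each of the 14 *mfn1,2* (left) and 14 wt (right) libraries, with the median as a line and axes from 0. *Sqstm1*, *Optn*, *Phb2*, *Ulk2* and *Tfeb* do not overlap between genotypes, *Nbr1*, *Gabarap*, *Gabarapl2*, *Ulk1*, *Fundc1*, *Map1lc3b* and *Pink1* overlap; the lower levels of *Ulk1*, *Ulk2*, *Fundc1*, *Tfeb* and *Gabarapl2* turn to higher when libraries are scaled to the same total.

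The ratio of a pair of genes within a library does not depend on the scaling, apart from the 0.1 added to each value. In all, 12 pairs of related genes were compared with a 2-sided permutation test of the mean log2 ratio (100000 resamples, smallest *P* 1e-05, no adjustment over the 12 pairs). The pairs were chosen with earlier results of these data known. Each ratio restates the fold changes of its 2 genes against each other and is not separate evidence. The ratio of *Sqstm1* to *Nbr1* was 7.33 to 11.3 (median 8.39) in *mfn1,2* and 3.25 to 6.70 (median 4.16) in wt libraries. The difference of the log2 ratios was 1.00 (SE 0.10, *P* = 1e-05), and each of the 14 *mfn1,2* libraries exceeded the highest wt library. The ratio of *Optn* to *Sqstm1* was 0.421 to 0.649 (median 0.535) in *mfn1,2* and 0.316 to 0.717 (median 0.530) in wt libraries, a log2 difference of 0.07 (SE 0.12, *P* = 0.553), which turned to −0.14 (*P* = 0.219) without the libraries that stood apart.

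The receptors took different shares of their summed level, a measure chosen after the values were seen and given without a test. *Sqstm1* took 45.6% to 54.0% of the sum of the 5 receptors (median 49.5%) in *mfn1,2* and 33.1% to 48.0% (median 39.2%) in wt libraries. *Tax1bp1* took 11.6% to 15.6% (median 13.6%) in *mfn1,2* and 20.6% to 29.1% (median 25.2%) in wt libraries, and *Nbr1* took 4.73% to 6.70% (median 5.88%) in *mfn1,2* and 6.80% to 10.7% (median 9.52%) in wt libraries. For *Tax1bp1* and *Nbr1*, all 14 *mfn1,2* libraries were below every wt library. A share falls where other genes of the sum rise more, here *Sqstm1* (1.23) and *Optn* (1.30). The level of *Tax1bp1* itself did not pass (0.04) and that of *Nbr1* rose (0.23), so their smaller shares are not falls in level.

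The LC3 and GABARAP family, the ubiquitin-like proteins that are joined to phosphatidylethanolamine on the autophagosome membrane, changed unevenly. Of 5 genes, *Gabarap*, *Gabarapl1* and *Map1lc3a* rose, *Gabarapl2* fell and *Map1lc3b* did not pass the test. Among all genes tested, 28.2% rose and 24.9% fell. *Gabarap* ranged from 19.4 to 43.7 (median 26.5) in *mfn1,2* and from 13.4 to 23.5 (median 17.0) in wt libraries, and 11 of 14 *mfn1,2* libraries exceeded every wt library. Its log2 fold change was 0.77 (SE 0.11, limma adjusted *P* = 2.8e-07). *Map1lc3a*, with the highest median of the family, ranged from 25.9 to 38.4 (median 32.5) in *mfn1,2* and from 16.7 to 29.6 (median 22.7) in wt libraries, a log2 fold change of 0.50 (limma adjusted *P* = 5.65e-06). The 4 wt libraries that stood apart were its lowest, at 16.7 to 19.1, and without the libraries that stood apart the log2 fold change was 0.38.

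*Gabarapl1* ranged from 5.29 to 12.4 (median 9.10) in *mfn1,2* and from 4.01 to 11.1 (median 5.53) in wt libraries, with a log2 fold change of 0.56 (limma adjusted *P* = 0.00104) and overlapping ranges. *Gabarapl2*, also called GATE-16, ranged from 7.59 to 10.5 (median 8.90) in *mfn1,2* and from 9.16 to 13.4 (median 10.4) in wt libraries. Its log2 fold change of −0.26 (limma adjusted *P* = 0.000516) was −0.11 and did not pass (adjusted *P* = 0.277) at the total without mitochondrially encoded genes. It was called as higher in the deposited values (0.38, adjusted *P* = 0.00353), with *Actb* (0.57, adjusted *P* = 0.00947) and at the same total (0.79, adjusted *P* = 2.48e-06), where all genes shift upward. *Map1lc3b*, which encodes the LC3 form most used as a marker of autophagosomes, ranged from 6.72 to 16.8 (median 11.04) in *mfn1,2* and from 4.44 to 13.9 (median 9.19) in wt libraries, a log2 fold change of 0.30 (SE 0.17, limma adjusted *P* = 0.121). It passed in the deposited values, at the same total and with *Actb*, where all genes shift upward.

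Within a library, the ratio of *Gabarapl2* to *Gabarap* was 0.199 to 0.401 (median 0.313) in *mfn1,2* and 0.393 to 0.844 (median 0.631) in wt libraries. The difference of the log2 ratios was −1.03 (SE 0.11, *P* = 1e-05 by permutation), and 12 of 14 *mfn1,2* libraries lay below every wt library. The ratios of *Gabarapl1* to *Gabarap* (log2 difference −0.21, SE 0.15, *P* = 0.175) and of *Map1lc3a* to *Map1lc3b* (0.20, SE 0.17, *P* = 0.237) did not pass. As a share of the summed level of the family, *Gabarapl2* took 7.77% to 12.0% (median 9.66%) in *mfn1,2* and 12.3% to 20.4% (median 16.2%) in wt libraries, with no overlap, and *Gabarap* took a median of 31.4% in *mfn1,2* and 25.4% in wt libraries, with overlap.

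**Figure D4:**
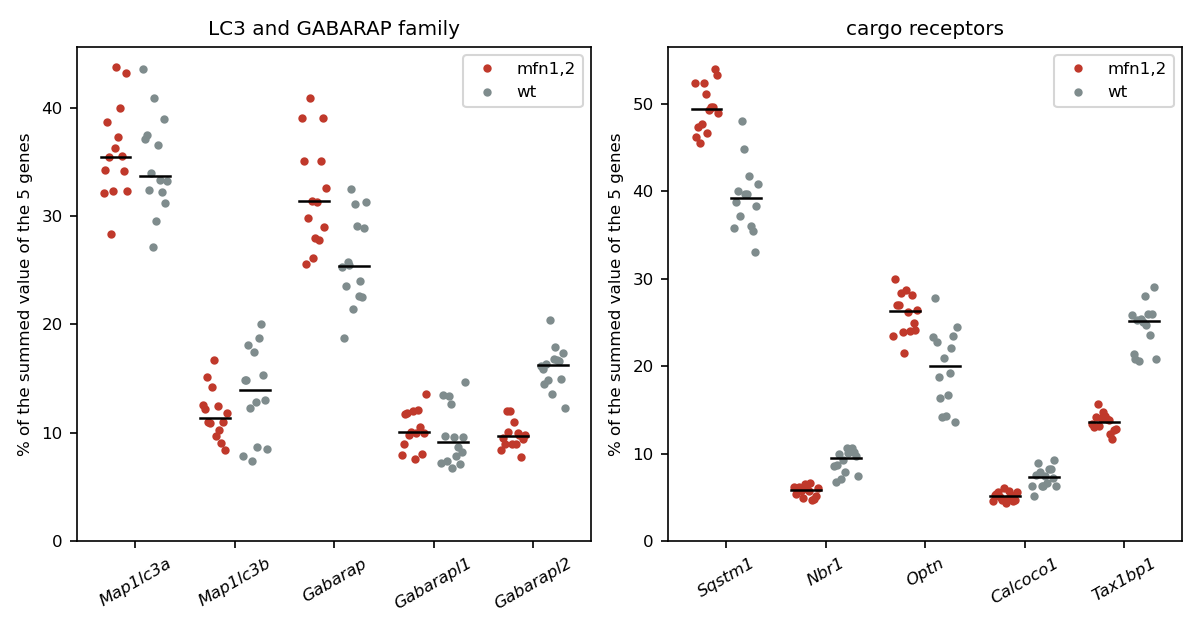
Share of the summed value of the 5 LC3 and GABARAP genes (left panel) and of the 5 cargo receptors (right panel) taken by each gene, in percent, in each *mfn1,2* (red) and wt (grey) library, with the median as a line. *Gabarapl2*, *Nbr1* and *Tax1bp1* take a smaller share in all 14 *mfn1,2* libraries than in any wt library. A share does not depend on how a library is scaled, but it falls where other genes of the sum rise more. By log2 fold change, *Nbr1* itself rose (0.23) and *Tax1bp1* did not pass (0.04).

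Of 6 genes for initiation, those of the ULK complex and *Tbk1*, 3 fell and 1 rose, beside 24.9% and 28.2% of all genes tested. *Ulk1* and *Ulk2* encode the related kinases that start autophagy. *Ulk2* ranged from 8.75 to 11.1 (median 10.1) in *mfn1,2* and from 12.4 to 18.1 (median 15.2) in wt libraries, with no overlap. Its log2 fold change was −0.59 (SE 0.06, limma adjusted *P* = 2.21e-10), against 0.05 in the deposited values and 0.24 with *Actb*. At the same total it was called as higher (0.46, adjusted *P* = 0.00301). *Ulk1* ranged from 3.44 to 7.07 (median 5.57) in *mfn1,2* and from 5.29 to 11.9 (median 7.55) in wt libraries, with overlap, and its log2 fold change was −0.59 (SE 0.11, limma adjusted *P* = 4.65e-05), against 0.04 in the deposited values, 0.23 with *Actb* and 0.45 at the same total. The ratio of *Ulk1* to *Ulk2* had a median of 0.510 in *mfn1,2* and 0.503 in wt libraries, a log2 difference of −0.0017 (SE 0.12, *P* = 0.988 by permutation).

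*Atg101*, which stabilizes the ATG13 subunit of the complex, ranged from 4.11 to 7.40 (median 5.59) in *mfn1,2* and from 6.93 to 9.91 (median 8.40) in wt libraries, and 13 of 14 *mfn1,2* libraries lay below every wt library. The log2 fold change was −0.59 (limma adjusted *P* = 2.12e-07), but 0.04 in the deposited values, 0.23 with *Actb* and 0.45 at the same total, where it was called as higher (adjusted *P* = 0.0027). *Atg13* itself went the other way, with 3.40 to 6.36 (median 4.31) in *mfn1,2* and 2.00 to 6.11 (median 3.14) in wt libraries, a log2 fold change of 0.51 (limma adjusted *P* = 0.00193), and the ranges overlapped. The scaffold gene *Rb1cc1*, also called FIP200, had a log2 fold change of −0.27 that did not pass (limma adjusted *P* = 0.0165) and did without the libraries that stood apart (−0.30, adjusted *P* = 0.0058). *Tbk1*, the kinase that acts on optineurin, did not pass either (0.23, limma adjusted *P* = 0.136).

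The promoter sequences of *Optn* and *Ulk2*, which moved in opposite directions relative to the other genes without overlap between genotypes, are shown for reference. Among the 6 genes without overlap, only their windows hold no annotated exon. Each is the 250 bases before the RefSeq start on the minus strand of build GRCm38.p6, *Optn* at chr2:5064118-5064367 and *Ulk2* at chr11:61855093-61855342. Capitals mark a match to the antioxidant response element core TGACNNNGC, to which NRF2 binds.
Optn: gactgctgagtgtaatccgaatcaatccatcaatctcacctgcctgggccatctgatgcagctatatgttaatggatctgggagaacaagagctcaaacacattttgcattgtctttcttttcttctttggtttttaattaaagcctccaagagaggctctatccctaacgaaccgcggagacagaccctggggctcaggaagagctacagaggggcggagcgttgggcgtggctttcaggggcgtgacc
Ulk2: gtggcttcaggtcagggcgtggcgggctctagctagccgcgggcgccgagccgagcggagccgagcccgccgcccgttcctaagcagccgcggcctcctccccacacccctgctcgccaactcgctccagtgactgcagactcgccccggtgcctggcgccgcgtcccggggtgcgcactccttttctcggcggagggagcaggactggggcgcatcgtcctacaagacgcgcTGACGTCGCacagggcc
The *Optn* window is 50% G and C with 8 CpG dinucleotides and holds none of the motifs searched, and the *Ulk2* window is 72.8% G and C with 31 CpG. The motifs were searched on both strands of the 250 bases before the start of 38 of the 44 genes, those with a RefSeq entry. A gene was counted where any of its promoters matched, whereas the percentages below are of single promoters, so they are not like for like. TGACNNNGC was found for *Atg13*, *Fundc2*, *Tax1bp1*, *Ulk2* and *Vmp1*, and in 10.2% of all 32851 promoters. The CLEAR element TCACGTGA, which TFEB binds, was found for *Atg3* (0.785% of all promoters), its shorter form TCACGTG, which overlaps it, for *Atg3* and *Atg7* (3.13%), and the ATF4 composite element TGATGNAA for 0 of 38 (3.45%). A match is a description of these letters, not a site of binding.

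The lipid kinase complex, which makes PI3P on the forming membrane, was represented by 6 genes, of which 1 rose and 0 fell, beside 28.2% and 24.9% of all genes tested. All 6 were called as higher in the deposited values, where 6770 of all 10871 genes tested were. *Becn1*, the Beclin 1 subunit, ranged from 9.66 to 18.4 (median 10.8) in *mfn1,2* and from 9.08 to 16.4 (median 12.3) in wt libraries, a log2 fold change of −0.07 (SE 0.10, limma adjusted *P* = 0.585), with a sign that turned in 4 other scalings. *Atg14*, which directs the complex to autophagy, ranged from 1.57 to 2.53 (median 1.87) in *mfn1,2* and from 1.16 to 2.03 (median 1.57) in wt libraries. Its log2 fold change of 0.26 (limma adjusted *P* = 0.00362) did not pass without the libraries that stood apart (0.22, adjusted *P* = 0.0187) or at the upper quartile (0.19, adjusted *P* = 0.0383). *Pik3c3*, *Pik3r4*, *Ambra1* and *Uvrag* had log2 fold changes between −0.04 (*Uvrag*) and 0.13 (*Pik3c3*).

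Of 5 genes for membrane supply and PI3P binding, 2 rose and 1 fell, beside 28.2% and 24.9% of all genes tested. *Wipi1*, a PI3P-binding protein of the forming autophagosome, ranged from 41.1 to 64.1 (median 45.7) in *mfn1,2* and from 18.5 to 39.3 (median 33.7) in wt libraries, with no overlap. Relative to wt, its log2 fold change was 0.64 (SE 0.11, limma adjusted *P* = 7.84e-06), and 0.46 without the libraries that stood apart, and the 4 such wt libraries were its lowest, at 18.5 to 25.3, against 26.7 to 39.3 in the other 10. The related *Wipi2* did not pass (−0.08, adjusted *P* = 0.462), and the ratio of *Wipi1* to *Wipi2* had a median of 18.7 in *mfn1,2* and 11.4 in wt libraries (log2 difference 0.72, SE 0.16, *P* = 0.00012 by permutation; 0.47 and *P* = 0.00223 without the libraries that stood apart).

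*Vmp1*, a scramblase of the endoplasmic reticulum, ranged from 17.8 to 31.9 (median 23.4) in *mfn1,2* and from 12.6 to 28.1 (median 16.0) in wt libraries, a log2 fold change of 0.46 (limma adjusted *P* = 0.000145). *Atg9a*, the transmembrane protein of the vesicles that seed the autophagosome, ranged from 3.05 to 7.45 (median 5.25) in *mfn1,2* and from 5.03 to 12.1 (median 8.45) in wt libraries. This gave a log2 fold change of −0.69 (limma adjusted *P* = 8.22e-06), but −0.06 in the deposited values, 0.13 with *Actb* and 0.35 at the same total. *Atg9a* shares 1832 of its 5762 exonic bases with a gene model on its own strand and 46 with *Ankzf1* on the other. Its value is uncertain to that extent.

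The conjugation systems and the ATG4 proteases, which process LC3 and GABARAP proteins, comprised 11 genes, of which 2 rose, 1 fell and 8 did not pass, beside 28.2% higher and 24.9% lower among all genes. In the deposited values 9 of the 11 were called as higher and 0 as lower, beside 6770 and 538 of all 10871 genes tested. *Atg7*, the E1-like enzyme of both systems, ranged from 1.37 to 3.51 (median 2.01) in *mfn1,2* and from 0.939 to 2.26 (median 1.32) in wt libraries, a log2 fold change of 0.56 (limma adjusted *P* = 0.00147). *Atg10*, the E2-like enzyme for ATG12, ranged from 2.93 to 3.94 (median 3.59) in *mfn1,2* and from 1.94 to 3.54 (median 2.37) in wt libraries, a log2 fold change of 0.46 (limma adjusted *P* = 1.87e-05). In both genes the ranges overlapped.

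*Atg4c* fell, with 1.37 to 2.61 (median 1.59) in *mfn1,2* and 2.22 to 3.66 (median 2.52) in wt libraries, and 11 of 14 *mfn1,2* libraries lay below every wt library. Its log2 fold change was −0.54 (limma adjusted *P* = 1.26e-05), but 0.07 in the deposited values, 0.25 with *Actb* and 0.47 at the same total, where it was called as higher (adjusted *P* = 0.00597). The other proteases did not pass, and neither did the ratios of *Atg4a* to *Atg4b* (log2 difference 0.22, SE 0.15, *P* = 0.14 by permutation) and of *Atg4d* to *Atg4b* (0.20, SE 0.19, *P* = 0.3). *Atg3*, *Atg5*, *Atg12* and *Atg16l1* had log2 fold changes between −0.15 (*Atg12*) and 0.18 (*Atg3*), none of which passed. *Atg16l2*, with a median of 0.696 in *mfn1,2* and 1.04 in wt muscle, had a log2 fold change of −0.55 (SE 0.19, limma adjusted *P* = 0.0127; −0.62, adjusted *P* = 0.0057 at the upper quartile), and the ratio of *Atg16l1* to *Atg16l2* lay close to the threshold of 0.01 (log2 difference 0.56, SE 0.20, *P* = 0.0102 by permutation).

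Among the mitophagy genes, 1 of 4 rose and 1 fell, beside 28.2% and 24.9% of all genes tested. *Phb2* encodes prohibitin 2 of the inner membrane, which binds LC3 when the outer membrane ruptures and also scaffolds the inner membrane. It ranged from 29.1 to 39.3 (median 31.1) in *mfn1,2* and from 17.1 to 24.0 (median 19.8) in wt libraries, with no overlap, and its log2 fold change was 0.72 (SE 0.06, limma adjusted *P* = 6.48e-12). *Fundc1*, an outer membrane receptor, ranged from 8.25 to 17.6 (median 10.5) in *mfn1,2* and from 13.9 to 24.3 (median 15.8) in wt libraries, and 13 of 14 *mfn1,2* libraries lay below every wt library. The log2 fold change was −0.58 (limma adjusted *P* = 3.94e-06), but 0.05 in the deposited values, 0.24 with *Actb* and 0.47 at the same total, where it was called as higher (adjusted *P* = 0.0012).

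*Fundc2* was at −0.17 and did not pass (limma adjusted *P* = 0.0575), but it was called as lower without the libraries that stood apart (−0.25, adjusted *P* = 0.00694) and at the upper quartile (−0.25, adjusted *P* = 0.00247), and as higher in the deposited values (0.46, adjusted *P* = 2.33e-05). The ratio of *Fundc1* to *Fundc2* was 0.163 to 0.369 (median 0.239) in *mfn1,2* and 0.262 to 0.429 (median 0.323) in wt libraries, a log2 difference of −0.41 (SE 0.10, *P* = 0.00043 by permutation), with 11 of 14 *mfn1,2* libraries below every wt library. *Pink1*, the kinase that accumulates on depolarized mitochondria, ranged from 27.8 to 60.1 (median 49.0) in *mfn1,2* and from 28.4 to 66.2 (median 53.9) in wt libraries, so the ranges overlapped. Its log2 fold change of −0.12 (SE 0.12, limma adjusted *P* = 0.407) was 0.03 at the total without mitochondrially encoded genes, 0.52 in the deposited values, 0.72 with *Actb* and 0.94 at the same total.

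*Tfeb* ranged from 4.99 to 7.01 (median 6.18) in *mfn1,2* and from 8.41 to 11.9 (median 10.1) in wt libraries, with no overlap. Its log2 fold change of −0.70 (SE 0.07, limma adjusted *P* = 1.4e-10) was −0.07 in the deposited values, where it did not pass (adjusted *P* = 0.586), 0.12 with *Actb* and 0.34 at the same total. *Tfe3* was at a median of 1.27 in *mfn1,2* and 1.28 in wt muscle, a log2 fold change of 0.04 (limma adjusted *P* = 0.746). The ratio of *Tfeb* to *Tfe3* was 3.75 to 6.46 (median 4.73) in *mfn1,2* and 5.46 to 11.5 (median 8.38) in wt libraries, a log2 difference of −0.74 (SE 0.11, *P* = 1e-05 by permutation), and 13 of 14 *mfn1,2* libraries lay below every wt library.

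**Figure D5:**
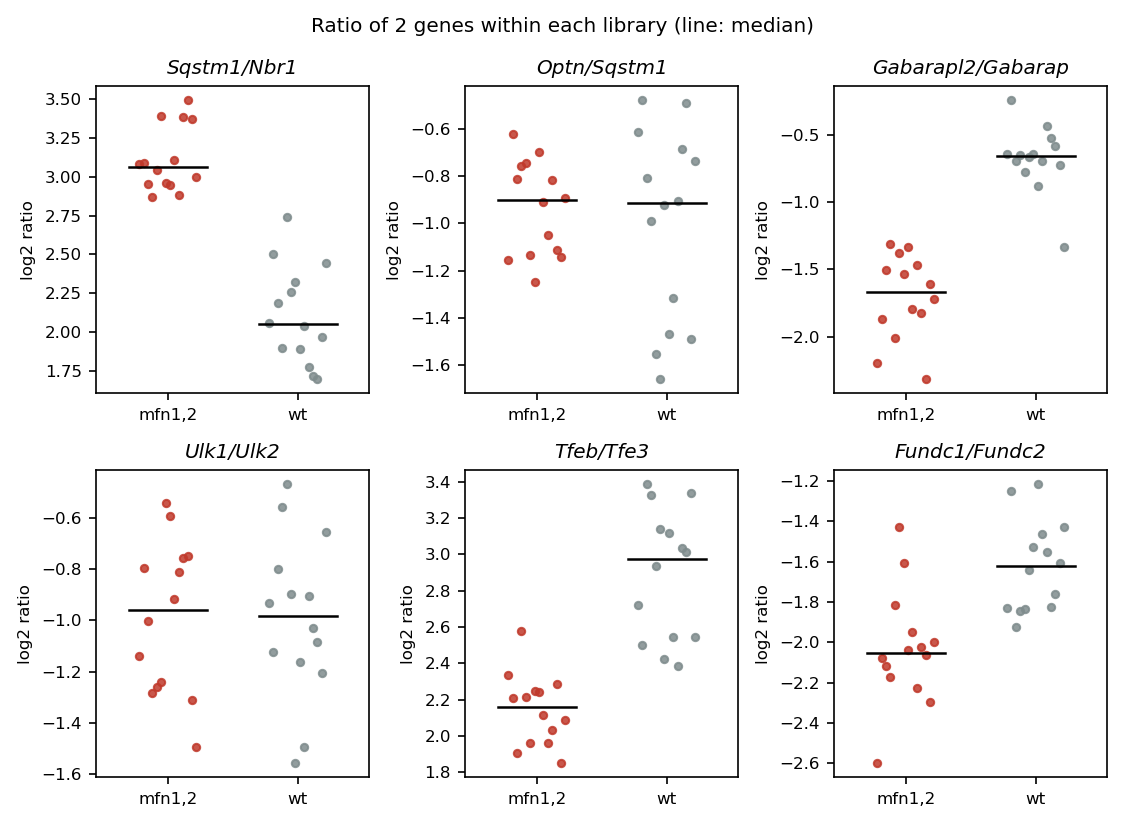
Log2 ratio of 2 genes within each *mfn1,2* (left) and wt (right) library for 6 of the 12 pairs compared, with the median as a line. All 14 *mfn1,2* libraries are above every wt library for *Sqstm1*/*Nbr1*, 12 are below for *Gabarapl2*/*Gabarap*, 13 for *Tfeb*/*Tfe3* and 11 for *Fundc1*/*Fundc2*, and *Ulk1*/*Ulk2* and *Optn*/*Sqstm1* overlap.

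Several pathways around this machinery were counted in the same way, and their counts stand beside 28.2% higher and 24.9% lower among all genes tested. Counts in the deposited values stand beside 6770 higher and 538 lower of all 10871 genes tested there. Of 25 nutrient-sensing genes upstream of ULK1, 10 rose and 3 fell, and 20 were called as higher and 2 as lower in the deposited values. *Sesn2* encodes a leucine sensor that restrains mTORC1 and is also a target of the integrated stress response. It ranged from 1.44 to 5.73 (median 3.83) in *mfn1,2* and from 0.0626 to 0.271 (median 0.162) in wt libraries, with a log2 fold change of 3.85 (limma adjusted *P* = 8.81e-18) that the pseudocount affects at such wt levels. The related *Sesn1* rose by 1.41 (adjusted *P* = 5.63e-08). *Castor2* (−2.06, adjusted *P* = 5.06e-14) and *Rragd* (−1.29, adjusted *P* = 2.58e-07), which act in amino acid sensing by mTORC1, fell and stayed below 0 under all 5 other scalings.

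Of 19 further mitophagy genes, 6 rose and 3 fell (15 higher and 1 lower in the deposited values). *Tomm20*, a receptor of the import channel, rose by 0.64 (limma adjusted *P* = 3.59e-08) and *Clu*, which encodes clusterin, was at −1.90 (adjusted *P* = 5.64e-12) and below 0 under all 5 other scalings. *Rhot2*, which encodes a GTPase that links mitochondria to microtubule motors (−0.57, adjusted *P* = 5.71e-05), and *Ppp2r3a* (−0.64, adjusted *P* = 2.41e-07) fell as well, but were above 0 with *Actb* (0.26 and 0.19) and at the same total (0.48 and 0.41), and *Rhot2* also in the deposited values (0.06). The hypoxia-linked receptor genes *Bnip3* (−0.28, adjusted *P* = 0.0185) and *Bnip3l* (0.05, adjusted *P* = 0.576), named after their values were seen, did not pass. The call of *Bnip3* depended on the choice of libraries and scale: it was lower without the libraries that stood apart (−0.40, adjusted *P* = 0.000219) and at the upper quartile (−0.36, adjusted *P* = 0.000942), and higher in the deposited values (0.35, adjusted *P* = 0.000234) and at the same total (0.77, adjusted *P* = 1.93e-08). *Bnip3l* was called as higher in the deposited values (0.68, adjusted *P* = 6.2e-08).

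Of 15 genes for fusion of autophagosomes with lysosomes, 6 rose and 1 fell (14 and 0 in the deposited values). *Epg5*, a tether of this fusion, ranged from 4.13 to 8.60 (median 6.12) in *mfn1,2* and from 2.30 to 3.79 (median 2.94) in wt libraries, without overlap (log2 fold change 1.02, limma adjusted *P* = 7.63e-11). *Plekhm1* (0.47, adjusted *P* = 2.59e-05) and *Vps39* (0.43, adjusted *P* = 0.000406) rose too, and *Ykt6*, a SNARE gene, fell (−0.42, adjusted *P* = 1.7e-05) but was at 0.20 in the deposited values, 0.39 with *Actb* and 0.60 at the same total. Of 25 other regulators and adaptors, 10 rose and 4 fell, among them *Tex264*, a receptor for the endoplasmic reticulum (1.70, adjusted *P* = 2.48e-09), *Foxo3*, a transcription factor that activates autophagy genes in muscle (0.67, adjusted *P* = 1.07e-06), and *Trp53inp2* (−0.81, adjusted *P* = 2.01e-09), which was above 0 with *Actb* (0.02) and at the same total (0.24). Without the libraries that stood apart, the falls in this list numbered 1, and in the deposited values 18 genes were higher and 0 lower. Of *Mitf*, *Ppargc1a* and *Zkscan3*, regulators related to TFEB, 0 passed, and all 3 were higher in the deposited values.

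*Sqstm1* is known to be activated by NRF2 and by the integrated stress response, so reference genes of both were examined. All 7 reference genes of the integrated stress response and 7 of 8 of NRF2 rose, beside 28.2% of all genes tested. *Ddit3*, which encodes CHOP, ranged from 60.8 to 140 (median 86.3) in *mfn1,2* and from 0.221 to 10.2 (median 3.64) in wt libraries, and the NRF2 target *Nqo1* from 2.37 to 15.9 (median 11.9) in *mfn1,2* and from 0.51 to 3.89 (median 1.79) in wt libraries. Of 12 autophagy genes described as ATF4 or CHOP targets in mouse fibroblasts, 5 rose and 1 fell, beside 28.2% and 24.9% of all genes, and all 12 were called as higher in the deposited values, at the same total and with *Actb*. Among all genes tested, 6770 of 10871 were called as higher in the deposited values, 8649 of 10930 at the same total and 7152 of 10877 with *Actb*. At the median-ratio scale *Sqstm1*, *Gabarap*, *Atg7*, *Atg10* and *Nbr1* rose and *Gabarapl2* fell, relative to the other genes.

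The 4 relations of *Sqstm1* to these genes were tested by permutation and adjusted within each set of values. The sets were all libraries, the deposited values and the larger clusters (13 *mfn1,2* and 10 wt libraries). Over all libraries, Pearson's r with *Nqo1* was 0.70 in *mfn1,2* and 0.62 in wt muscle (adjusted *P* = 0.0330 each). Spearman's rho was 0.38 (adjusted *P* = 0.364) and 0.72 (adjusted *P* = 0.0189). With *Ddit3*, r was 0.08 and −0.04. The values that follow are from the larger clusters, added after seeing the data. With *Nqo1*, Pearson's r was 0.31 (*P* = 0.284, adjusted *P* = 0.378) and Spearman's rho 0.23 (*P* = 0.459, adjusted *P* = 0.633) in *mfn1,2* muscle, and r was −0.19 after leaving out the 2 libraries farthest from the median of *Nqo1*. In wt muscle r was 0.72 (*P* = 0.0200, adjusted *P* = 0.0801), rho was 0.79 (*P* = 0.00848, adjusted *P* = 0.0339), and r was 0.47 without those 2 libraries. With *Ddit3*, r was −0.10 (*P* = 0.759, adjusted *P* = 0.759) and rho −0.18 (*P* = 0.566, adjusted *P* = 0.633) in *mfn1,2* muscle, and r was −0.41 (*P* = 0.249, adjusted *P* = 0.378) and rho −0.18 (*P* = 0.633, adjusted *P* = 0.633) in wt muscle. Without the 2 libraries farthest from the median of *Ddit3*, r was −0.29 in *mfn1,2* and −0.06 in wt muscle. DM8, the *mfn1,2* library that stood apart, held the lowest *mfn1,2* values of *Sqstm1*, *Optn* and *Nbr1*.

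Whole muscle was sequenced, so fewer cells of a type and less RNA per cell cannot be told apart. The marker counts stand beside 24.9% lower and 28.2% higher among all genes tested. In the deposited values, 538 of 10871 genes tested were lower and 6770 higher. Markers of several other cell types were lower relative to the other genes, though in the deposited values 0 of the endothelial, macrophage and fibroblast markers fell: 6 of 7 endothelial genes fell (summed level 44.9 to 59.6 in *mfn1,2*, 68.3 to 101 in wt libraries), as did 7 of 8 macrophage genes (8.97 to 25.5 in *mfn1,2*, 13.1 to 39.3 in wt), 4 of 8 fibroblast genes (83.3 to 745 in *mfn1,2*, 184 to 1460 in wt) and both lymphocyte genes measured (0.187 to 0.672 in *mfn1,2*, 1.81 to 42.0 in wt). The 1 satellite cell gene tested also fell, 0 of 3 adipocyte genes passed, and 1 of 3 Schwann cell genes rose. *S100a8*, the neutrophil marker analysed, was 1.42 to 12.8 in *mfn1,2* and 0 to 0.194 in wt libraries. Of 10 muscle fiber genes 6 fell and 1 rose, but 3 were lower and 4 higher in the deposited values, 1 lower and 6 higher at the same total, 1 lower and 2 higher with *Actb*, and 8 lower and 0 higher without the libraries that stood apart. They had a summed level of 23907 to 39121 in *mfn1,2* and 25588 to 61180 in wt libraries, and no defining marker of the fibers was at 0. The part of these markers in the results on autophagy genes was not tested. In GENCODE M21, exons of 16 of the 44 genes overlap those of another gene, 4 of them on the same strand. *Sqstm1* shares 580 bases with *Mrnip* on the other strand (0 to 0.575 in *mfn1,2*, 0 to 0.308 in wt libraries), *Gabarapl1* shares 570 with an unnamed gene model, *Becn1* shares 3104 with *Cntd1*, and *Atg4d* shares 1405 with *Kri1*, which rose by 1.13. *Gabarapl2* and *Atg4a* also have annotated pseudogenes, which could share their reads, so their values are uncertain to that extent. The libraries were stranded, but whether reads were counted by strand is not given in the sources used here.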

How the data were processed

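Values were a normalized signal per gene and library that the authors deposited and described as normalized by DESeq2; the tools in the submitters' processing notes are featureCounts, DESeq2, HISAT2 and Trim Galore (no versions given), and the build is mm9. Of the deposited values above 0, 99.9994% were not whole (tolerance 1e-06), and their lowest nonzero value fell with exonic length (slope −1.02 on log-log axes over 262 genes), so the unit is not given in the sources used here, depth is unknown, and count tests were not run. Precision rests on the 14 libraries per genotype, each from 1 mouse.

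Libraries were grouped by the genotype in the column names. The scaling factor of a library was its median ratio to a geometric-mean library, taken from 11693 genes that exceed 0 in all 28 libraries. Genes averaging 0.5 or more (10819 of 12732) were tested in limma 3.58.1 under R 4.3.3, with lmFit and a trended eBayes, on log2(value + 0.1), which understates changes of low genes, with Benjamini-Hochberg adjustment over all genes and a threshold of 0.01. All 44 genes described passed the filter. The steps were tested on simulated data of 10683 genes, of which 99 were changed by 0.5 and 100 by 1 on the log2 scale. Of these, 49.5% and 90% were recovered, so a gene that did not pass may still have changed by about 0.5. Far fewer genes were changed in the simulation than were called in the data. Ratios and correlations were compared by permutation (100000 resamples) in Python 3.11.15 with numpy 2.4.6 and scipy 1.17.1. Named genes are up to 3 changed genes of a role group with the largest change, the largest in the other direction, and *Ulk1*, *Becn1*, *Map1lc3b*, *Sqstm1*, *Pink1* and *Tfeb*; from other lists, up to 4 and the largest in the other direction. Others are named beside a ratio or a count. The genes, lists and pairs were chosen with earlier results of these data known. Of 14 pairs listed, 12 were compared, since *Atg2a* and *Atg9b* were not analysed here. Promoters are from RefSeq (GRCm38.p6). Of 38 matched genes, 31 had their first transcribed bases found in an annotated transcript. Results were recomputed with 5 other scalings, a pseudocount of 1 or 0.01, without the filter, with a minimum mean of 5, with robust variance, with Bonferroni adjustment and without single libraries or those that stood apart. Family shares and correlations in the larger clusters were added after seeing the data.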

Additional observations from a re-analysis of the deposited data

How the results depend on the processing

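The rises kept their direction under every alternative tried, but no scaling tried lowered all genes by as much as the smallest rise (*Nbr1*, 0.23). Most of the falls turned where the scaling lifts all genes. In the values as deposited 36 genes rose and 0 fell (median log2 fold change 0.68), at the same total 40 and 0 (1.09), and with *Actb* 34 and 0 (0.88), while at the total without mitochondrially encoded genes 17 rose and 7 fell (0.20) and at the upper quartile 11 rose and 11 fell (−0.02). Among all genes tested, 6770 of 10871 rose and 538 fell as deposited, 8649 of 10930 and 284 at the same total, and 7152 of 10877 and 366 with *Actb*. At the total without mitochondrially encoded genes 3784 of 10839 rose and 1798 fell, and at the upper quartile 2570 of 10831 rose and 3122 fell. With Bonferroni adjustment 4 rose and 4 fell, given here without a count over all genes. Leaving out 1 library gave 13 to 14 rises, 8 to 10 falls and a median of 0.04 to 0.07. Of all 10790 to 10879 genes tested in these fits, 2937 to 3102 rose and 2610 to 2761 fell. Pseudocounts of 1 and 0.01, no filter and robust variance each gave 14 rises and 8 falls, and a minimum mean of 5 gave 10 and 7 of 28 genes. Of all 10819 genes tested, 3078 rose and 2711 fell at a pseudocount of 1, 3041 and 2685 at 0.01, and 3050 and 2694 with robust variance. Without the filter 3222 of 12720 rose and 3184 fell. With the minimum mean of 5, 1719 of 4809 rose and 1155 fell.

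Turned log2 fold changes in the deposited values, at the same total and with *Actb*, in that order, were 0.036, 0.45 and 0.23 for *Atg101*, 0.070, 0.47 and 0.25 for *Atg4c*, 0.57, 0.98 and 0.76 for *Becn1*, 0.051, 0.47 and 0.24 for *Fundc1*, 0.38, 0.79 and 0.57 for *Gabarapl2*, 0.52, 0.94 and 0.72 for *Pink1*, 0.038, 0.45 and 0.23 for *Ulk1* and 0.045, 0.46 and 0.24 for *Ulk2*. At the same total and with *Actb* alone, *Atg9a* turned to 0.35 and 0.13 and *Tfeb* to 0.34 and 0.12, after −0.06 and −0.07 in the deposited values. *Gabarapl2* and *Becn1* were called as higher in the deposited values, at the same total and with *Actb*. *Pink1* was called as higher in the deposited values and at the same total, and *Ulk2*, *Atg101*, *Fundc1* and *Atg4c* at the same total only. At the total without mitochondrially encoded genes, *Becn1* turned to 0.075 and *Pink1* to 0.027, neither of which passed before or after. *Map1lc3b* passed at 0.93, 1.35 and 1.12, *Gabarapl2* did not pass at −0.11 at the total without mitochondrially encoded genes, and at the upper quartile *Atg13* (0.44), *Atg14* (0.19) and *Nbr1* (0.15) did not pass; without the libraries that stood apart *Atg14* (0.22) did not.

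Of the ratios, *Ulk1* to *Ulk2* turned to 0.035 with a pseudocount of 1 and ranged from −0.046 to 0.039 when 1 library was left out, and *Optn* to *Sqstm1* turned to −0.14 without the libraries that stood apart, none of which passed. *Atg16l1* to *Atg16l2* passed at 0.62 with a pseudocount of 0.01 and at 0.64 without the libraries that stood apart, and ranged from 0.50 to 0.64 when 1 library was left out. The correlation of *Sqstm1* with *Ddit3* over all 14 *mfn1,2* libraries (0.08) turned to −0.10 without the library that stood apart, and over all 14 wt libraries (−0.04) it was −0.79 in the deposited values. That with *Nqo1* was 0.70 over all *mfn1,2* and 0.62 over all wt libraries (adjusted *P* = 0.0330 each), against 0.31 (adjusted *P* = 0.378) and 0.72 (adjusted *P* = 0.0801) in the larger clusters, where Spearman's rho in wt was 0.79 (adjusted *P* = 0.0339). No paired analysis was possible because the columns of values carry no replicate numbers. Depth is unknown, so no limit from counting is given.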
